A study of Mus musculus with 24 samples.

Results

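Small RNA was sequenced from exosome-enriched fractions (EEFs) of mouse hippocampus prepared by ultracentrifugation (UC) 24 h after intra-amygdala kainic acid (KA). The 3 UC libraries labelled KA at 24 h were compared with the 3 UC libraries labelled control at 24 h, which are 6 of the 24 libraries of the series, chosen by their method, treatment and time alone. All mice were male C57BL/6 (C57BL/6OlaHsd in the study's methods) aged 6 to 9 weeks, with no transgene or allele named. KA mice received 0.3 µg KA in 0.2 µl into the right basolateral amygdala, control mice received PBS, and seizures were ended with midazolam at 8 mg/kg after 40 min. Hippocampi were taken after perfusion with PBS and several were pooled for each library, the EEFs were treated with RNase A before lysis, and the labels call the 3 libraries of each group biological samples. UC enriches small vesicles without purifying them, and a bulk EEF mixes vesicles of every hippocampal cell type, so that fewer vesicles of one origin and less RNA per vesicle cannot be told apart.

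Kainic acid activates glutamate receptors, and its injection into the amygdala drives status epilepticus, a prolonged seizure that damages hippocampal neurons and is followed by gliosis. Exosomes are small vesicles released when late endosomes fuse with the cell membrane, and they carry proteins and RNA, including microRNAs (miRNAs). A miRNA is a short RNA cut from one arm of a hairpin, named 5p or 3p by the arm, and it pairs with target mRNAs mainly through its seed, bases 2 to 8 from its 5′ end, to lower their translation and stability.

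The 6 libraries held 692628 miRNA reads, with 95855, 135887 and 137351 in controls and 106430, 128783 and 88322 after KA. At this depth a single read equals 7.28 to 11.3 CPM, reads scaled to the same total in every library. A read was present for 728 miRNA names, of the 1073 names in the 24 libraries, and the 444 miRNAs with at least 1 read in at least 3 of the 6 libraries were tested. These 444 held 99.9% of the reads, 193 of them had a mean of at least 10 reads per library, and 156 had a mean under 3 reads. Libraries correlated at 0.942 to 0.980 across miRNAs, and replicates differed by more than sampling noise. The libraries numbered 1 of both groups lay at opposite ends of the first principal component (36.4% of the variance).

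The mature sequences on which the comparison turned are shown first, from RefSeq on GRCm38.p6, where 365 of the 444 tested names had an entry. They are the miRNAs past the test with a mean of at least 10 reads and an entry. Capitals mark the seed.
miR-21a-5p: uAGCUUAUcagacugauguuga
miR-21a-3p: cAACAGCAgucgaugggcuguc
miR-107-3p: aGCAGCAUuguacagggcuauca
miR-146b-5p: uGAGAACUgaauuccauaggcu
miR-127-3p: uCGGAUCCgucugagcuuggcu
miR-30c-1-3p: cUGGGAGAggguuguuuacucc
miR-672-5p: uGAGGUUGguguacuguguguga

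The sequences of 3 close relatives are shown for comparison and were chosen after values were seen, because each shares the seed of a miRNA above.
miR-21c: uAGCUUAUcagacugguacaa
miR-103-3p: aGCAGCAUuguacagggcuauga
miR-146a-5p: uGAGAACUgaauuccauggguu
Counted from 1 at the 5′ end, miR-107-3p differs from miR-103-3p by C22G alone. miR-146b-5p differs from miR-146a-5p by A18G and C21U. miR-21a-5p and miR-21c share their first 15 bases, and the first difference is A16G. How reads matching several hairpins were assigned is not given in the sources used here, so that the split between miR-107-3p and miR-103-3p and that between miR-21a-5p and miR-21c are uncertain.

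Both miR-21a arms lie in 1 hairpin on the minus strand, chr11:86584067-86584158, with miR-21a-5p at chr11:86584120-86584141 and miR-21a-3p at chr11:86584082-86584103. GENCODE places the hairpin in an untranslated exon of Vmp1, an autophagy gene on the same strand. miR-107-3p (chr19:34820700-34820722, minus strand) lies in an intron of Pank1, which encodes a pantothenate kinase, and miR-146b-5p (chr19:46342790-46342811, plus strand) in an intron of Mfsd13a. miR-127-3p (chr12:109592888-109592909, plus strand) lies opposite a coding exon of Rtl1, a paternally expressed imprinted gene. miR-30c-1-3p (chr4:120769546-120769567, minus strand) lies in an intron of Nfyc and miR-672-5p (chrX:104116228-104116250, minus strand) in an intron of Nexmif. No gene is annotated over miR-146a-5p (chr11:43374435-43374456, minus strand).

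After KA, both arms of miR-21a rose, and they were the only miRNAs of the 444 to pass the adjusted test. miR-21a is known to increase in reactive glia and injured tissue, where its targets include regulators of growth and survival signalling. Levels are given below as CPM after TMM scaling, which corrects each library for the makeup of its reads. The test was the quasi-likelihood test of edgeR, with p-values adjusted by Benjamini-Hochberg over the 444 miRNAs at a threshold of 0.05. At this threshold 2 of 444 miRNAs passed (0.45%), and at an unadjusted p of 0.05 it was 16 (3.6%), of which 8 were higher (1.8%) and 8 lower (1.8%) after KA. This even split, 50% higher, depended on the scaling, since 61.5% were higher with RLE size factors, 66.7% with library size only and 77.8% when scaled to the reference miRNAs. Across all 444, the median log2 fold change was 0.02.

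miR-21a-3p, the less abundant arm, had 15, 27 and 25 reads in controls and 76, 135 and 85 reads after KA. Its normalised level was 158, 197 and 196 CPM in the control group and 624, 1006 and 964 CPM after KA. Every KA library lay far above every control library. The log2 fold change was 2.22 (SE 0.37, adjusted p = 0.000248, edgeR, n = 3 per group). Its 95% interval ran from 1.46 to 2.97.

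miR-21a-5p, the dominant arm of the hairpin, had 184, 344 and 304 reads in controls and 760, 705 and 644 reads after KA. The level rose from 1942, 2510.1 and 2388 CPM to 6239, 5254 and 7305 CPM, or from 2279.8 ± 299 to 6266 ± 1026 CPM (SD, n = 3 per group). The groups did not overlap. The log2 fold change was 1.46 (SE 0.26, adjusted p = 0.000359, edgeR), with a 95% interval from 0.93 to 1.98. Without both libraries numbered 1, a setting chosen after seeing the data, the value was 1.33 and the adjusted p 0.0712 (edgeR), while miR-21a-3p still passed.

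Reads were also summed over miRNAs sharing a seed, which for miR-21a repeats nearly the same counts and is no separate evidence. Of 309 seeds, 2 passed the adjusted test (0.647%) and 12 an unadjusted p of 0.05 (3.88%). The seed AACAGCA, held by miR-21a-3p alone, rose by 2.19 on the log2 scale (adjusted p = 6.46e-05, edgeR). The seed AGCUUAU, held by miR-21a-5p and miR-21c, rose by 1.43 (adjusted p = 0.000554, edgeR), with 184, 344 and 304 reads in controls and 762, 707 and 646 after KA, nearly all of them from miR-21a-5p.

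**Figure D1:**
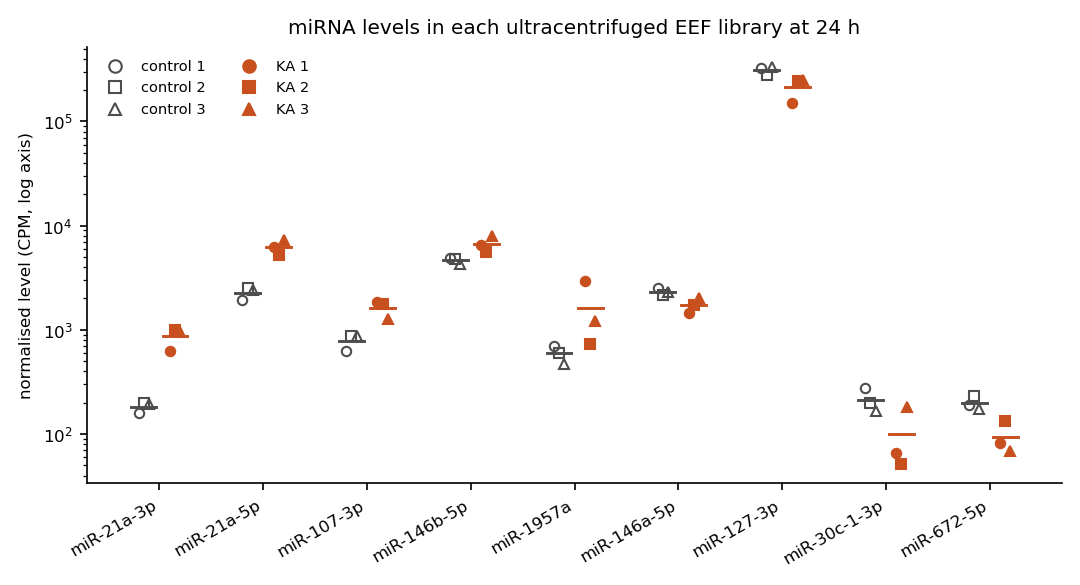
Normalised level (CPM, log axis) of 9 miRNAs in each of the 3 control (open) and 3 KA (filled) UC libraries at 24 h, with horizontal bars at the group means. The miR-21a arms lie apart in every library, from 158 to 197 against 624 to 1006 CPM for miR-21a-3p, while KA library 1 lies apart from the other KA libraries for miR-1957a and miR-127-3p.

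Among the other miRNAs past an unadjusted p of 0.05, miR-107-3p was higher after KA. miR-107 belongs to a family linked to metabolism and cell cycle control. It had 59 to 119 reads in controls and 112 to 240 after KA, and its level was 623, 868 and 879.6 CPM against 1831, 1788 and 1271 CPM. The groups did not overlap, although the library KA 3 held as many reads as control 3 (112) and was lifted above it by its smaller depth. The log2 difference was 1.04 (SE 0.30, unadjusted p = 0.00118, adjusted p = 0.118, edgeR), and an unadjusted p under 0.05 was reached under each of 17 other settings. Those settings refit the same libraries, and the adjusted p of miR-107-3p ran from 0.0084 to 0.995 over them (edgeR, limma-voom or DESeq2). miR-103-3p, which differs from it at 1 base, had 1180.5 ± 92.6 CPM in controls and 1323 ± 67.8 CPM after KA, with a log2 difference of 0.16 (SE 0.28).

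The level of miR-146b-5p, a miRNA induced by NF-kappaB signalling that restrains inflammatory signalling, was also higher. It had 468, 655 and 544 reads in controls and 786, 743 and 704 after KA, or 4664 ± 348 and 6658 ± 1238 CPM. All 3 KA libraries lay above all 3 controls. The log2 difference was 0.51 (SE 0.25, unadjusted p = 0.0474, adjusted p = 0.998, edgeR), and leaving out any 1 library other than KA 2 took the unadjusted p above 0.05. Its relative miR-146a-5p, of the same seed, went the other way, with 237, 298 and 292 reads in controls and 175, 230 and 177 after KA. Its groups did not overlap either, and its log2 difference was -0.44 (SE 0.26, unadjusted p = 0.104, edgeR).

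miR-1957a had 67, 83 and 60 reads in controls and 356, 98 and 108 after KA, or 595 ± 118 against 1626 ± 1149.7 CPM. The library KA 1 was far above the other KA libraries. The log2 difference was 1.46 (SE 0.41, unadjusted p = 0.00101, adjusted p = 0.118, edgeR), and without KA 1 it was 0.70 (unadjusted p = 0.0741, edgeR). In these libraries 88.6% of its control reads and 93.4% of its KA reads carried a changed 5′ end, so that few reads matched the annotated miRNA from its first base. Reads with no change at either end were 0, 1 and 0 in controls and 0, 0 and 0 after KA.

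miR-127-3p, the most abundant miRNA of these EEFs, was lower after KA. It is cut from the transcript that runs antisense to the imprinted retrotransposon-like gene Rtl1. It took 32.4%, 28.3% and 31% of the miRNA reads in controls and 17.4%, 25.7% and 24.9% after KA, and its level was 327496, 280121 and 334153 CPM against 151781, 246929 and 249564 CPM. The groups did not overlap, and KA 1 was the lowest library. The log2 difference was -0.54 (SE 0.25, unadjusted p = 0.0345, adjusted p = 0.998, edgeR), and it was -0.35 (unadjusted p = 0.239, edgeR) without KA 1. Leaving out control 1 or control 3 also took its unadjusted p above 0.05. An unadjusted p under 0.05 was reached under 8 of 17 other settings.

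Apart from miR-127-3p, 2 miRNAs that were lower had a mean of at least 10 reads. miR-30c-1-3p, the minor arm of a miR-30 hairpin, had 26, 27 and 21 reads in controls and 8, 7 and 16 after KA. Its CPM values overlapped, since KA 3 at 182 CPM lay above control 3 at 165 CPM, and its log2 difference was -1.14 (SE 0.48, unadjusted p = 0.0238, edgeR). Without KA 3 the difference was -1.82, and without control 1, KA 1 or KA 2 its unadjusted p was above 0.05. miR-672-5p had 18, 32 and 22 reads in controls and 10, 18 and 6 after KA, with a log2 difference of -1.04 (SE 0.48, unadjusted p = 0.0357, edgeR), and leaving out control 2, KA 1 or KA 3 took its unadjusted p above 0.05.

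The other 8 miRNAs past an unadjusted p of 0.05 had a mean under 10 reads, and none passed the adjusted test of edgeR, although miR-361-5p did with limma-voom (adjusted p = 0.0323). miR-361-5p had no read in controls and 4, 4 and 2 reads after KA, which is at least 3.80-fold higher against a floor of 3 reads over the control group. miR-21c had no read in controls and 2 reads in each KA library, or at least 2.28-fold higher. miR-378d had 2 reads in each control and none after KA, or at least 1.75-fold lower. These 3 miRNAs were seen in all libraries of 1 group and in none of the other, at 10 reads or fewer in total. A miRNA absent from 1 group could pass the filter only if all 3 libraries of the other group held it. This pattern was thus set by the filter and is no separate evidence of a difference.

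miR-92a-1-5p, from the miR-17 cluster, had 1, 0 and 0 reads against 3, 5 and 4, a ratio of 13.7 with a 95% counting interval from 2.03 to 585. In the opposite direction, miR-193a-3p had 3, 6 and 1 reads against 0, 1 and 0, miR-199b-3p 6, 6 and 2 against 2, 0 and 1, and miR-764-3p 4, 3 and 5 against 1, 2 and 0. Their ratios of controls to KA were 8.77 (1.25 to 380.4), 4.09 (1.14 to 22.2) and 3.51 (0.946 to 19.4), and these intervals cover counting error only. Leaving out 1 library moved the log2 difference of miR-193a-3p between -4.89 (without KA 2) and -2.33 (without control 2), that of miR-199b-3p between -2.87 (without KA 1) and -1.42 (without KA 2) and that of miR-764-3p between -2.61 (without KA 2) and -1.46 (without KA 3). Their unadjusted p (edgeR) was under 0.05 in 4, 3 and 2 of these 6 fits. miR-203-3p had 4, 7 and 16 reads against 2, 5 and 3, with a log2 difference of -1.32 (SE 0.65, unadjusted p = 0.0491, edgeR) that was -0.68 without control 3.

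**Figure D2:**
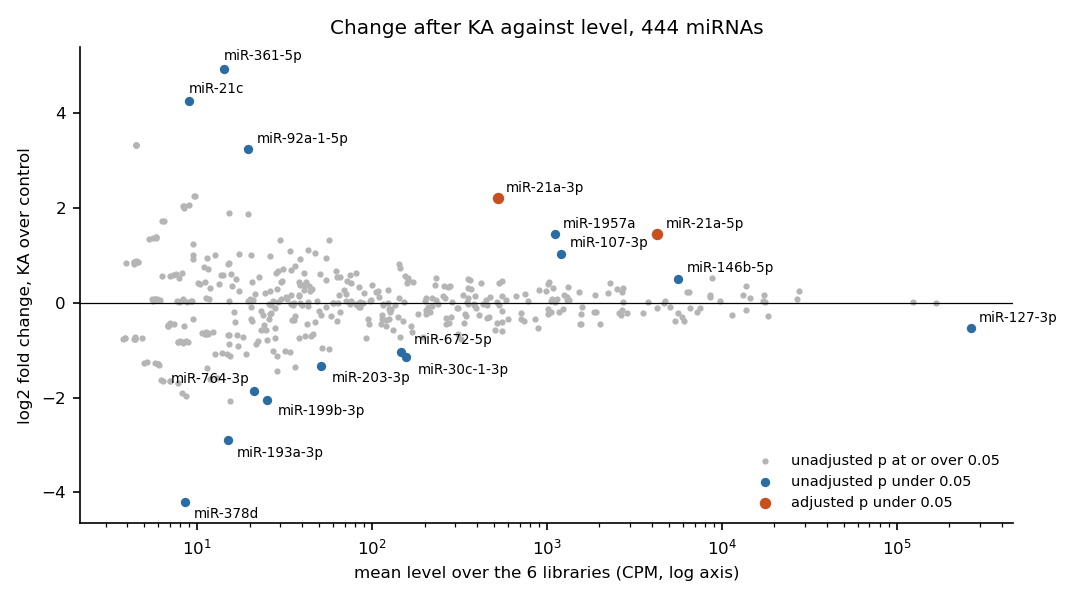
Log2 fold change of KA over control against the mean level (CPM, log axis) for the 444 tested miRNAs, 1 point per miRNA, with the 16 past an unadjusted p of 0.05 named. The miR-21a arms stand apart at high level with values of 2.22 and 1.46, and the spread of all miRNAs widens towards low levels.

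The depth set what could be seen. Among the 76 miRNAs with a mean of at least 100 reads, the median size of the log2 difference was 0.20, and 5 had an unadjusted p under 0.05. It was 0.26 among the 117 with 10 to 100 reads, 0.37 among the 95 with 3 to 10 reads and 0.78 among the 156 with under 3 reads, where 7 had an unadjusted p under 0.05. The median SE in these 4 classes was 0.28, 0.41, 0.69 and 1.23, so that for miRNAs with few reads a log2 difference of 1 was not detectable at this depth.

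Groups did not overlap for 25 miRNAs that were higher after KA (5.63% of 444) and 20 that were lower (4.5%). Of the 25, 7 had no read in any control, and of the 20, 1 had none after KA, so that the filter fixed their separation. With 3 against 3 libraries, separation in 1 direction or the other has a probability of 0.1 without any change, and these shares are near it. Of the 16 miRNAs past an unadjusted p of 0.05, 14 were among the miRNAs whose groups did not overlap. Abundant miRNAs that lay apart without passing the test included miR-132-3p, which is induced by neuronal activity. It was at 872 ± 127 CPM in controls and 1189 ± 278 CPM after KA (log2 difference 0.45, SE 0.31). Its reads were 73, 139 and 106 in controls and 184, 139 and 90 after KA. KA 3 thus held fewer reads than control 2 and was lifted above it only by its smaller depth. From the imprinted miRNA cluster of chromosome 12, miR-409-3p was at a mean of 379 CPM in controls and 239 CPM after KA (log2 difference -0.66, SE 0.37), and miR-412-5p at 405 and 240.5 CPM (-0.75, SE 0.40).

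Most abundant miRNAs differed little. Together with miR-127-3p, the next most abundant miR-22-3p and miR-181a-5p made up 59.0 ± 3.87% of reads in controls and 53.8 ± 3.11% after KA. miR-181a-5p, a brain-enriched miRNA, was at 169577 ± 17189 CPM in controls and 168441 ± 11586 CPM after KA, with a log2 difference of -0.01 and a 95% interval from -0.45 to 0.43. miR-22-3p was at 123648 ± 27474 and 125593 ± 13546 CPM, with an interval from -0.46 to 0.50. The other members of the 10 most abundant besides miR-127-3p were miR-30a-5p, miR-6236, miR-541-5p, miR-27b-3p, miR-9-5p, miR-181b-5p and let-7i-5p, with log2 differences from -0.28 for miR-541-5p to 0.25 for miR-6236. None of these passed an unadjusted p of 0.05.

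miRNAs were next grouped by the cells or processes they mark. In a list of microglial and inflammatory miRNAs, 3 of 6 tested members had an unadjusted p under 0.05, all higher after KA (miR-146b-5p and both arms of miR-21a), and none was lower, where 1.8% of all 444 were higher. Of the other members 2 had a difference below 0, among them miR-146a-5p (-0.44), whose groups did not overlap. The median log2 difference was 0.64, against 0.02 over all 444, and lay midway between miR-146b-5p and miR-142a-3p, the latter on 8 reads. The summed level of the list was between 9197 and 9712 CPM in controls and between 13540 and 18309 CPM after KA, without overlap, most of it from miR-21a-5p and miR-146b-5p. The defining markers of immune cells were at or near 0: miR-155-5p had 2 reads over the 6 libraries, miR-223-3p 1 read, miR-142a-3p 8 reads, miR-142a-5p 25 reads (3 to 6 in each library) and miR-150-5p none.

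A list of miRNAs of tissue injury and hypoxia had 2 of 13 tested members higher (the miR-21a arms) and 1 lower (miR-203-3p) at an unadjusted p of 0.05, with a median of 0.30, where 1.8% of all 444 were higher and 1.8% lower. miR-221-3p and miR-210-3p, which respond to injury and to low oxygen, were among the members that did not pass. The miR-21a arms are in both lists, so that these counts are not separate. Neither list was chosen without knowledge of earlier results of these data.

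Markers of other cell types did not pass the test in these libraries. Of 15 neuron-enriched miRNAs tested, none had an unadjusted p under 0.05, the median was 0.05, and the summed level stood at 39822 ± 2606 CPM in controls and 40252 ± 2841 CPM with KA. miR-124-3p, the classical neuronal miRNA, was at 6511 ± 1055 and 5285 ± 496 CPM (log2 difference -0.30, SE 0.26). The 4 oligodendrocyte miRNAs had a median of 0.11, the 4 astrocyte-associated members of the miR-29 family 0.24, the 3 vascular miRNAs -0.16 and the 8 choroid plexus miRNAs 0.18, again with no member past an unadjusted p of 0.05. Of the erythroid miRNAs only miR-486b-5p was tested (-0.57, SE 0.38), and miR-451a, the most abundant miRNA of red blood cells, had 2 reads in all. Against the hippocampal origin given by the labels, the defining brain miRNAs miR-124-3p and miR-9-5p were abundant, with miR-9-5p at 16514 ± 1103 and 18501 ± 2308 CPM.

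Of 12 miRNAs regulated by neuronal activity none had an unadjusted p under 0.05 (median 0.09), and of 9 miRNAs linked to epilepsy 1 was lower, miR-203-3p (median -0.11). By family, none of 17 let-7 and miR-98 members (median 0.10) and none of 8 miR-181 members (0.00) passed an unadjusted p of 0.05. In the group of miR-15, miR-16, miR-103 and miR-107 1 of 10 was higher, miR-107-3p, while the median was -0.22. Among 10 relatives of the miR-17 cluster 1 was higher, miR-92a-1-5p (median -0.10), among 11 miR-30 members 1 was lower, miR-30c-1-3p (0.03), and among 4 miR-378 members 1 was lower, miR-378d (-0.24). No member of the miR-10, miR-99, miR-100 and miR-125 group (12 tested, median -0.11), of the miR-23, miR-24, miR-26 and miR-27 group (9, 0.23) or of miR-34 and miR-449 (3, 0.30) passed.

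The imprinted region of chromosome 12 carries 2 miRNA clusters. In the cluster antisense to Rtl1, 1 of 21 tested miRNAs was lower at an unadjusted p of 0.05, miR-127-3p, and the median was -0.13. Its summed level, nearly all miR-127-3p, stood at 330997 ± 30237 CPM in controls and 233546 ± 56540 CPM with KA. In the neighbouring cluster from miR-379 to miR-410 none of 43 passed, the median was 0.02, and groups did not overlap for 5 lower and 1 higher member, against 4.5% lower and 5.63% higher over all 444. The reference miRNAs miR-25-3p and miR-92b-3p were at 368 ± 113 and 316 ± 28.1 CPM and at 285 ± 68.5 and 289 ± 55.5 CPM. Of 20 miRNAs that the study names in its text 3 were higher and 1 lower at an unadjusted p of 0.05 (median 0.07), and since that list was drawn up on these samples it is not independent evidence of a direction.

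**Figure D3:**
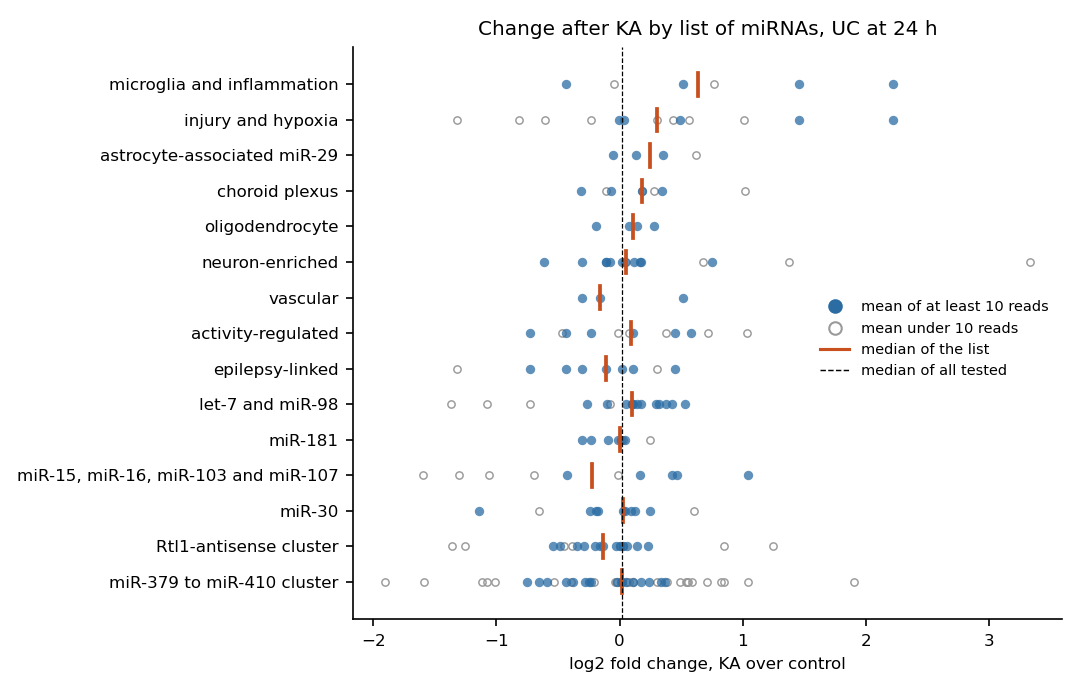
Log2 fold change of KA over control for the tested members of 15 lists of miRNAs, 1 point per miRNA, filled at a mean of at least 10 reads and open below it, with a bar at each list's median and a dashed line at the median of all 444 (0.02). The microglia and inflammation list has the highest median, 0.64, among 6 members. It lies midway between miR-146b-5p and miR-142a-3p, which had 0, 3 and 0 reads in controls and 4, 0 and 1 after KA.

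The balance of the arms of a hairpin was compared for the 33 hairpins with both arms tested at a mean of at least 5 reads. The ratio of the 3p to the 5p arm passed the adjusted test for none (0%, limma) and an unadjusted p of 0.05 for 0 hairpins, the difference in the log2 ratio between KA and control was above 0 for 15 of 33, and groups did not overlap for 2 (6.06%). For miR-21a the 3p share was 7.54%, 7.28% and 7.60% in controls and 9.09%, 16.1% and 11.7% after KA. The groups lay apart, with a log2 difference in the ratio of 0.73 (SE 0.44, unadjusted p = 0.106, adjusted p = 0.878, limma). The lowest p was that of miR-423, whose 3p share was 4.88%, 4.77% and 4.46% in controls and 7.76%, 7.05% and 10.4% after KA, also without overlap (0.87, SE 0.43, adjusted p = 0.878, limma). miR-425 and miR-126a followed, with differences of -0.95 and -0.80 and overlapping groups.

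The deposited tables also list reads whose ends differ from the annotated miRNA. A read counts here as changed at an end if it carries a base at its 5′ or 3′ end that the hairpin does not have there. The share of reads changed at either end was 13.4%, 11.9% and 9.65% in controls and 13.2%, 12.8% and 12.8% after KA, with overlap (exact permutation test, two-sided, p = 0.4). For 3 against 3 libraries the smallest p of this test is 0.1. Changed 3′ ends took 11.2 ± 1.89% and 12.4 ± 0.253% of reads (exact p = 0.4), and a tail of 1 U after the full 3′ end, as terminal uridylyltransferases add, 1.30 ± 0.156% and 1.49 ± 0.112% (exact p = 0.3). miR-6236 alone had 95.4% of its control reads with a changed 3′ end, of which the addition CGGGCC was the most frequent.

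Changed 5′ ends were rarer, at 0.849%, 0.722% and 0.647% of reads in controls and 1.18%, 1.02% and 0.919% after KA. Every KA library lay above every control (exact permutation p = 0.1, the smallest possible). Without miR-1957a the values were 0.785%, 0.666% and 0.611% against 0.856%, 0.946% and 0.812%, still apart. Without miR-127-3p, the most abundant miRNA, the values were 1.12%, 0.878% and 0.809% against 1.35%, 1.17% and 1.11%. Control 1 then lay above KA 3, so that the groups overlapped (exact permutation p = 0.2). When each miRNA counted equally, the means were 2.05% and 2.12% and the groups overlapped (exact permutation p = 0.6).

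For single miRNAs, the share of reads changed at an end was tested for the 81 miRNAs with at least 50 reads in every library. None passed the adjusted test (0%, limma on the logit of the share), and 8 had an unadjusted p under 0.05 (9.88%), of which 6 were higher and 2 lower after KA. The share was higher in the mean after KA for 56 of the 81. The lowest p belonged to miR-21a-5p, at 7.61%, 7.27% and 5.92% in controls and 15.7%, 13.0% and 12.6% after KA. All KA libraries lay above all controls, and the difference was 1.07 on the log2 scale of the odds (SE 0.20, unadjusted p = 0.000711, adjusted p = 0.0576, limma).

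Nearly all of this came from 1 kind of end. In 10, 14 and 15 control reads and in 105, 81 and 71 KA reads, miR-21a-5p carried a single C at the second position after its annotated end, that is at base 24, where the hairpin has U, behind base 23, where the hairpin has C. These reads made up 5.43%, 4.07% and 4.93% of miR-21a-5p reads in controls and 13.8%, 11.5% and 11.0% after KA. The means were 4.81 ± 0.691% and 12.1 ± 1.5%, the groups lay apart, and the exact permutation p of 0.1 was the smallest possible. This end was chosen after its values were seen.

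The added C was also counted in the other libraries of the series. With UC at 2 weeks its share was 2.88 ± 0.221% in controls and 2.50 ± 0.248% after KA (exact permutation p = 0.2). With the precipitation kit at 24 h it was 3.67 ± 1.12% and 6.84 ± 3.45% (exact permutation p = 0.3), and with the kit at 2 weeks 1.86 ± 0.888% and 0.813 ± 0.462% (exact permutation p = 0.2). The control and KA libraries overlapped in each of these 3 comparisons, with single libraries of the kit at 24 h reaching 10.4% after KA, and a difference between times or methods was not tested.

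**Figure D4:**
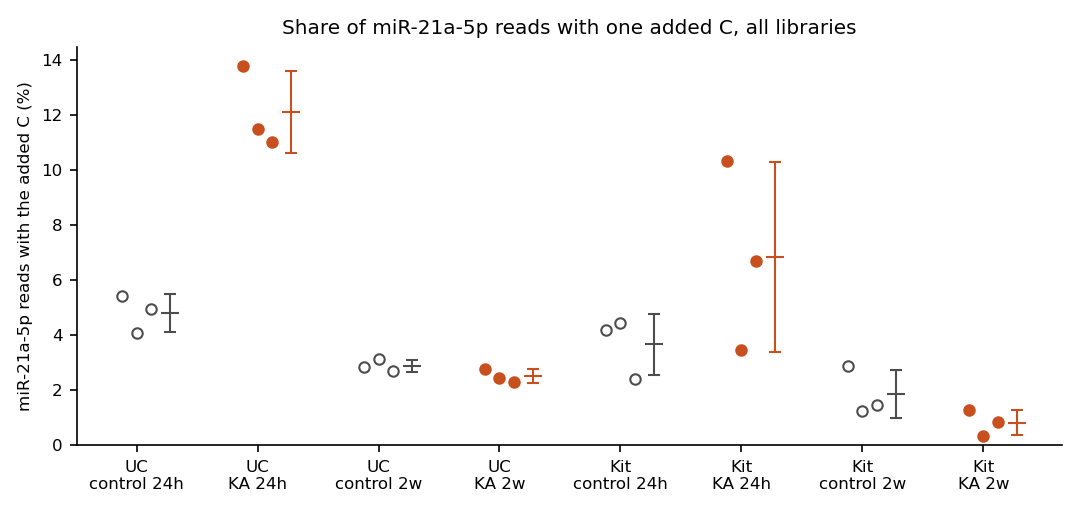
Share of miR-21a-5p reads (%) with 1 added C at the second position after the annotated 3′ end, in each of the 24 libraries (points), with mean and SD of each group of 3. The UC libraries at 24 h run from 4.07 to 5.43% in controls and from 11.0 to 13.8% after KA.

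The other 7 miRNAs with an unadjusted p under 0.05 for their ends had an adjusted p from 0.322 to 0.352 (limma). miR-708-3p was at 8.88 ± 1.44% in controls and 14.1 ± 1.81% after KA, miR-1843b-5p at 9.77 ± 1.84% and 13.7 ± 1.54%, and miR-423-5p at 1.86 ± 0.494% and 2.94 ± 0.295%. miR-191-5p was at 0.489% and 0.924%, and miR-1957a at 99.6% and 100%. The miR-1957a share was 100% in every library except control 2 (98.8%). At this ceiling its logit, with 0.5 added to each count, follows the number of reads and does not measure a change of ends. Lower shares were found for miR-107-3p, at 10.6 ± 3.23% and 6.15 ± 2.09%, and for miR-204-5p, a choroid plexus miRNA, at 3.70 ± 1.01% and 1.21 ± 1.12%.

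A-to-G changes inside a miRNA can be the trace of ADAR enzymes, which turn adenosine into inosine in double-stranded RNA. Within the seed such changes alter which mRNAs can pair. Whether the changes given below came from editing was not tested. Inside the reads, at places that the table lists away from a read end or directly before the first base, 7 places had an A as G in enough reads to exceed an error rate of 1% in at least 2 libraries of a group. The sequences of those with an entry are shown because each holds the changed base, counted from 1 at the 5′ end.
miR-3099-3p: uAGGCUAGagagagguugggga
miR-376b-3p: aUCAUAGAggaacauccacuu
miR-411-5p: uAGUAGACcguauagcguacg
miR-378c: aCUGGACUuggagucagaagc
miR-2137: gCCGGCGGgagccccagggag
The change turns the seed of miR-3099-3p from AGGCUAG into AGGCUGG (A7G), that of miR-376b-3p from UCAUAGA into UCAUGGA (A6G) and that of miR-411-5p from AGUAGAC into AGUGGAC (A5G). It lies outside the seed in miR-378c and miR-2137 (both A16G).

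miR-411-5p (chr12:109710190-109710210, plus strand), of the cluster from miR-379 to miR-410, is a known target of ADAR in brain. Its A5G reads were 25 of 123, 62 of 311 and 43 of 224 in controls, or 20.3%, 19.9% and 19.2%, with 95% Wilson intervals within 14.2% and 28.3%. After KA they were 77 of 320, 40 of 189 and 44 of 175, or 24.1%, 21.2% and 25.1%. All KA libraries lay above all controls, by less than the counting error of single libraries (exact permutation p = 0.1, adjusted over the 7 places 0.35).

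miR-376b-3p (chr12:109723508-109723528, plus strand), from the same cluster and also edited in brain, rested on 6 to 20 reads per library, with 86.7 ± 15.3% in controls and 83.3 ± 10.0% after KA. miR-3099-3p (chr7:6803638-6803659, plus strand, in an intron of Usp29) had A7G in 91.6 ± 1.73% and 90.5 ± 3.16% of reads. For miR-378a-3p at position 16 the values were 62.3 ± 2.83% and 62.8 ± 2.36%, for miR-378c (chr14:46954905-46954925, minus strand, opposite an intron of Samd4) 62.1 ± 2.85% and 58.6 ± 8.04%, and for miR-2137 75.1 ± 3.76% and 81.9 ± 9.14% with 7 to 26 reads per library. These 5 places gave exact permutation p-values from 0.4 to 0.9. In miR-6236 the table lists the change at position 0, directly before the first base, in 1.28 ± 0.196% and 1.73 ± 0.224% of reads, without overlap (exact permutation p = 0.1, adjusted 0.35). Reads matching miR-378a-3p and miR-378c cannot be told apart with certainty. miR-378c, miR-2137 and miR-6236 are not among the edited sites that the study names. In turn, miR-381-3p and miR-421-3p, which the study names as edited, were not among the places found in these libraries.

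A-to-G changes that the table lists at the 5′ end of a read were kept apart from these 7 places. Such a change at position 3 took 9.51 ± 2.08% of miR-151-3p reads in controls and 9.14 ± 1.47% after KA (exact permutation p = 0.8). For miR-99b-3p, also at position 3, it took 28.2 ± 16.5% and 33.4 ± 12.2% of 15 to 44 reads per library (exact permutation p = 0.6). The shares were 11.0 ± 3.95% and 8.02 ± 2.95% at position 2 of miR-3099-3p (exact permutation p = 0.4) and 1.92 ± 0.973% and 3.51 ± 1.14% at position 1 of miR-99a-5p (exact permutation p = 0.3). The groups overlapped in each of these 4.

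The KA effect at 24 h was last set beside that of 2 other comparisons, with separate controls. For UC EEFs at 2 weeks and for EEFs prepared by the kit at 24 h, the effect of miR-21a-5p was 0.99 (SE 0.26) and 0.81 (SE 0.28) on the log2 scale, against 1.46 here. For miR-21a-3p it was 0.50 (SE 0.41) and 1.23 (SE 0.42), against 2.22. The difference between 24 h and 2 weeks was 0.46 (unadjusted p = 0.206, edgeR) for miR-21a-5p and 1.72 (SE 0.56, unadjusted p = 0.00367, adjusted p = 0.349, edgeR) for miR-21a-3p. The difference between UC and the kit was 0.67 (SE 0.40) and 1.00 (SE 0.58), and neither passed.

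Over all 444 miRNAs, 2 differed in KA effect between 24 h and 2 weeks by the adjusted test (0.45%), with 25 at an unadjusted p under 0.05 (5.63%). These were miR-1957a, at 2.39 (SE 0.57, adjusted p = 0.0353, edgeR), and miR-146a-5p, at -1.57 (SE 0.37, adjusted p = 0.0353, edgeR). When each of the 12 UC libraries was left out in turn, the 6 at 2 weeks as an alternative added after seeing the data, both passed only without control 1 at 2 weeks, 1 passed in 5 fits and none in 6. Without control 3 at 2 weeks the difference of miR-1957a was 1.39 (adjusted p = 0.65, edgeR), and without KA 1 at 24 h it was 1.53 (adjusted p = 0.375, edgeR). Between UC and the kit 0 of 444 differed by the adjusted test (0%, edgeR), with 13 at an unadjusted p under 0.05 (2.93%). Of the 16 miRNAs past an unadjusted p of 0.05 with UC at 24 h, 4 also had one with the kit, as had 4.95% of all 444, and 3 at 2 weeks, as had 7.21% of all 444. The sign was that of the kit value for 11 of the 16 (49.1% of all 444) and that of the 2-week value for 10 of the 16 (54.7% of all 444). For miR-107-3p the effects were 0.11 at 2 weeks and 0.76 with the kit, for miR-146b-5p 0.47 and -0.35, and for miR-127-3p -0.20 and 0.02.

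**Figure D5:**
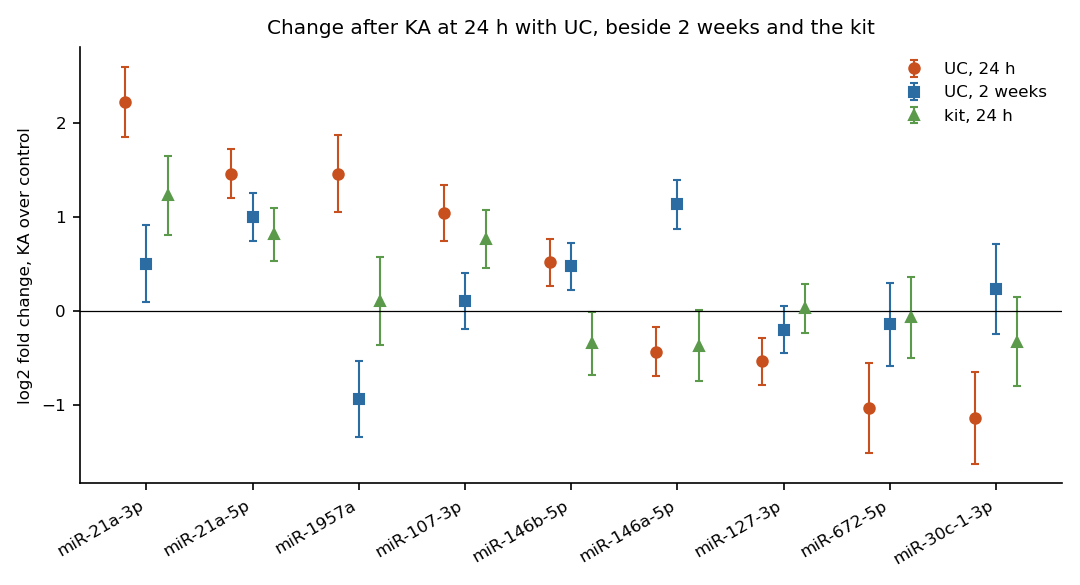
Log2 fold change of KA over control with its SE for 9 miRNAs, with UC at 24 h (circles), UC at 2 weeks (squares) and the kit at 24 h (triangles), 3 libraries per group. miR-21a-5p lies above 0 in all 3 comparisons (1.46, 0.99 and 0.81), while miR-146a-5p is at -0.44 with UC at 24 h and 1.13 at 2 weeks.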

How the data were processed

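The authors pooled hippocampi of male C57BL/6OlaHsd mice, prepared EEFs by UC and sequenced small RNA libraries on an Illumina MiSeq. They trimmed the reads and mapped them to miRNA hairpins with Chimira, and its version is not given in the sources used here. What was deposited per library is a count for each mature miRNA, not normalized, and a count for each kind of changed end or base. For each miRNA and library the totals of both tables were equal (11992 of 11992). At the 3′ end, position 1 was taken as the base directly after the annotated end, since 0.469% of 31739 single-base additions equalled the hairpin base.

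Samples were grouped by their labels, and the members and lists were chosen with earlier results of these data known. The 12 UC libraries entered 1 quasi-likelihood test of edgeR 4.0.16 (R 4.3.3), with TMM factors, 1 coefficient per group and p-values adjusted by Benjamini-Hochberg. Each SE was the log2 fold change divided by the root of its F. The test of UC against the kit used all 24 libraries. Arm ratios and end shares were tested with limma 3.58.1 on log2 ratios and logits with 0.5 added to each count, and shares of single libraries with the two-sided exact permutation test (scipy 1.17.1). Scripts were tested on simulated data. DESeq2 1.42.0, limma-voom, other scalings, filters, a replicate block and fits without each library were alternatives.

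Named miRNAs were those past an unadjusted p of 0.05, the 10 most abundant, those the study names, the reference miRNAs and the most abundant of each list. For arms and ends a few of lowest p were also named, and for changes inside reads every place past the threshold. Others fell outside these rules, among them miR-210-3p, miR-142a-3p, miR-1843b-5p, miR-423-5p, miR-151-3p and miR-99b-3p. They are to be read as chosen after their values were seen. Among abundant miRNAs with groups apart, miR-409-3p and miR-412-5p were chosen after their values were seen. Gene annotation came from GENCODE and mature sequences from RefSeq on GRCm38.p6. miR-1957a, miR-378a-3p and miR-6236 are named without sequence. Counting intervals and floors cover counting error only, and total counts of the 6 libraries were 88322 to 137351.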

Additional observations from a re-analysis of the deposited data

Results flagged for a closer look

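The KA effect of miR-1957a with UC differed between the 2 times. The effect at 24 h minus that at 2 weeks was 2.39 on the log2 scale (SE 0.57, adjusted p = 0.0353, edgeR). At 24 h it had 595 ± 118 CPM in controls against 1626 ± 1149.7 CPM in KA libraries, and 1377 ± 1144 and 711 ± 36.2 CPM at 2 weeks. Single libraries stood high in both comparisons, namely KA 1 at 24 h with 2922 CPM and control 3 at 2 weeks with 2693 CPM. Without control 3 at 2 weeks the difference was 1.39 (adjusted p = 0.65, edgeR). At 24 h, reads of miR-1957a with no change at either end were 0, 1 and 0 in controls and 0, 0 and 0 after KA. Nearly no read thus matched the annotated miRNA at both ends.

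The KA effect of miR-146a-5p differed in the opposite sense, by -1.57 (SE 0.37, adjusted p = 0.0353, edgeR). It was at 2323 ± 165 CPM in controls and 1719 ± 286 CPM after KA at 24 h, and at 2319.8 ± 93.6 and 5077 ± 769 CPM at 2 weeks. The 3 KA libraries lay below the 3 controls at 24 h and above the 3 controls at 2 weeks. Without KA 1 at 24 h the difference was -1.58 (adjusted p = 0.144, edgeR). For miR-146b-5p, of the same seed, the effects were 0.51 and 0.47, with a difference of 0.04 (SE 0.35).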

How the results depend on the processing

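Both miR-21a arms passed the adjusted test under each of the 17 alternatives except 2. The first is a scaling to the reference miRNAs (miR-92b-3p and miR-25-3p), which left 1 miRNA, miR-21a-3p. The second leaves out both libraries numbered 1, was chosen after seeing the data, and also left 1 miRNA, miR-21a-3p. With the 6 libraries alone 4 miRNAs passed and with the replicate number as a block also 4, miR-1957a and miR-107-3p being added in both. It was 3 with limma-voom (adding miR-361-5p), with DESeq2 (miR-107-3p) and with no filter (miR-1957a). Without each library in turn the number was 2 to 3, with miR-21a-3p at 2.09 to 2.40 and miR-21a-5p at 1.33 to 1.57. The number with an unadjusted p under 0.05 was 16 in the reported test, 9 with the reference scaling, 8 with at least 10 reads in 3 libraries, 9 with DESeq2, 9 without both libraries numbered 1 and 10 to 24 without each library in turn (10 without KA 1, 24 without KA 2). Of the 16, 6 kept an unadjusted p under 0.05 without each library in turn and 10 did not.

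Among miRNAs with an unadjusted p under 0.05, the share higher after KA was 50%, and it was 61.5% with RLE size factors, 66.7% with library size only and 77.8% with the reference scaling or DESeq2. Library size only moved the median of all miRNAs from 0.02 to 0.13. Among 1432 values of 85 named miRNAs under 17 alternatives, 0 changed sign after having been called, 72 lost and 9 gained an unadjusted p under 0.05. Whether the replicate numbers pair the libraries is not stated in the sources used here. Control and KA libraries of the same number correlated at -0.13, 0.07 and 0.16, and those of unlike number at -0.25 to 0.15. These few values cannot decide whether the libraries were paired. Under the block, the end shares gave 2 calls in place of 0, miR-21a-5p and miR-1957a, and 0 to 1 without each library in turn (miR-191-5p without control 2). The share of miR-1957a was at its ceiling, so that its call follows the number of reads and is no evidence of a changed end. Arm ratios gave 0 to 1 (miR-425 without control 1). The comparison of 24 h with 2 weeks gave 3 calls under the block (adding miR-6236), 1 with at least 10 reads (miR-146a-5p) and 0 to 2 without each of the 12 UC libraries in turn, in place of 2, and that of UC with the kit 0 to 0 without each UC library at 24 h. The cause of these changes was not tested, apart from the fewer libraries or miRNAs that an alternative itself brings. Depth limits the 156 miRNAs with a mean under 3 reads most.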
